A study of Saccharomyces cerevisiae with 60 samples.

Results

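The regions described here are 300 bins of 500 bp in the genome of budding yeast in which Orc1, the largest subunit of the origin recognition complex, was enriched in G1 cells while Mcm4, a subunit of the replicative helicase, stayed below a fixed limit. A bin was taken when the ratio of the Orc1-HA(HOP) signal to the mean of the 3 HOP libraries was 2 or more in each of 3 Orc1 libraries and the mean ratio of Mcm4-HA(HOP) was below 2. The genome held 24134 such bins, of which the 78 bins of the repeated rDNA on chromosome XII were left out. The Orc1 condition was met by 721 of the remaining 24056 bins (3%) and both conditions by 300 (1.24% of the 24134), so that 41.6% of the Orc1 bins are described here. The other 421 Orc1 bins, with a mean Mcm4 ratio of 2 or more, are called Orc1 and Mcm4 bins and serve for comparison.

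The series holds 60 ChIP-seq libraries in 20 groups of 3, made to compare tagged proteins with control strains in which the bacterial protein LexA carries the same tag and is cross-linked at operators placed beside its gene. Signal is the count of reads per 50 bp window after a moving median over 10 windows, scaled to that library's 20th percentile and averaged over the bin. Each ratio is such a signal divided by that of the control. All strains derive from the W303 strain SSy161, a haploid MATa bar1Δ with ade2, ura3, his3, trp1, leu2 and can1 mutations, grown in YEPD at 23 °C. The G1 groups were held with α-factor for 3.5 h, per the labels.

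The HOP strain (MPy39) carries LexA-3xHA and its operators at TRP1, and the Orc1 (MPy199, ORC1-3xHA with URA3) and Mcm4 (MPy184 in the labels, MCM4-3xHA with KanMX6) strains carry the same construct. These G1 libraries were made with the anti-HA antibody 12CA5. MOP (MPy105) and FLOP (MPy35) are the LexA controls with a MYC and a FLAG tag at ADE2. Their partners are Fkh1-MYC(MOP) (MPy108), Fkh1-FLAG(FLOP) (MPy54 in the labels) and, in G1 only, Sir2-FLAG(FLOP) (YHy29). Fkh1-MYC (MPy166) and Fkh1-FLAG (OAy1100) without a LexA construct were set against the same tags on fkh1-dbm (MPy169 and MPy172), a form with a mutated DNA-binding domain. The untagged parent was subjected to IP with each antibody. Every group is 1 strain, so a difference between strains and an effect of the tagged protein cannot be told apart, and nothing in the labels says that the 3 libraries came from separate cultures, so p-values measure the spread between these libraries, which may be technical.

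The origin recognition complex binds origins of replication throughout the cell cycle, and in G1 it loads the Mcm2-7 helicase, which contains Mcm4, as a double hexamer onto the DNA. The complex also binds the silencers of the mating-type loci HML and HMR, where its subunit Orc1 recruits Sir1 and through it the Sir2, Sir3 and Sir4 proteins. Sir2 is a histone deacetylase that acts at the silent loci, near telomeres and in the rDNA. Fkh1 is a forkhead transcription factor that activates genes of the CLB2 cluster together with its paralog Fkh2 and also binds beside a class of origins.

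The depth of the 60 libraries ran from 2116658 to 44263661 summed counts, with a 20th percentile of 6 to 128 counts per window. It was 11 to 32 in the anti-HA G1 libraries that give the Orc1 and Mcm4 ratios and 8.5 to 16.5 in the MOP and Fkh1-MYC(MOP) libraries, so the values of both rest on few counts per window. The correlation of log2 signal between 2 replicates over bins was 0.493 to 0.950. The deleted BAR1 gene, which checks the parent, had a mean signal of at most 0.0894 in every library.

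The Mcm4 ratio of these bins was low by the limit but it was not at background, so the name "Orc1 bins with a Mcm4 ratio below 2" is used and not one that says that Mcm4 is absent. The bins were selected on these Orc1 and Mcm4 ratios, which are given without a test. That the Orc1 libraries stand above the HOP libraries in the bins named below largely follows from this choice. The median Mcm4 ratio was 1.53 (quartiles 1.29 and 1.73, range 0.338 to 1.98), against 0.936 over all bins and 2.71 in the Orc1 and Mcm4 bins. Of the 300 bins, 250 had a Mcm4 ratio of 1 or more in all 3 libraries. The mean was below 1 in 23 bins, between 1 and 1.5 in 119 and between 1.5 and 2 in 158. In 55 bins 1 or 2 of the Mcm4 libraries reached 2. The median Orc1 ratio was 2.78 (quartiles 2.39 and 3.55, range 2.03 to 14.9), against 4.02 in the Orc1 and Mcm4 bins and 0.931 over all bins. The bins below the Mcm4 limit were thus also those nearer to the Orc1 limit.

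The limits cut through continuous values. Just inside the Mcm4 limit were the bin at FCY22 and CEM1 on chromosome V (278001 to 278500, mean 1.98 from libraries at 2.09, 1.76 and 2.09) and the bin between GAP1 and a tRNA gene on chromosome XI (517001 to 517500, mean 1.98). Just outside it was the bin at XBP1 and a tRNA gene on chromosome IX (175001 to 175500), with libraries at 2.19, 1.65 and 2.16. For Orc1, the lowest library of the bin at DGR2 on chromosome XI (214001 to 214500) was 2.01, and that of the bin between YML133C and COS3 on chromosome XIII (6501 to 7000), left out, was 1.995. The HOP signal that divides both ratios was itself below the 20th percentile of its library (signal below 1) in 26.3% of these bins, 52.7% of the Orc1 and Mcm4 bins and 14.6% of all bins, and its part in the ratios was not tested.

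**Figure D1:**
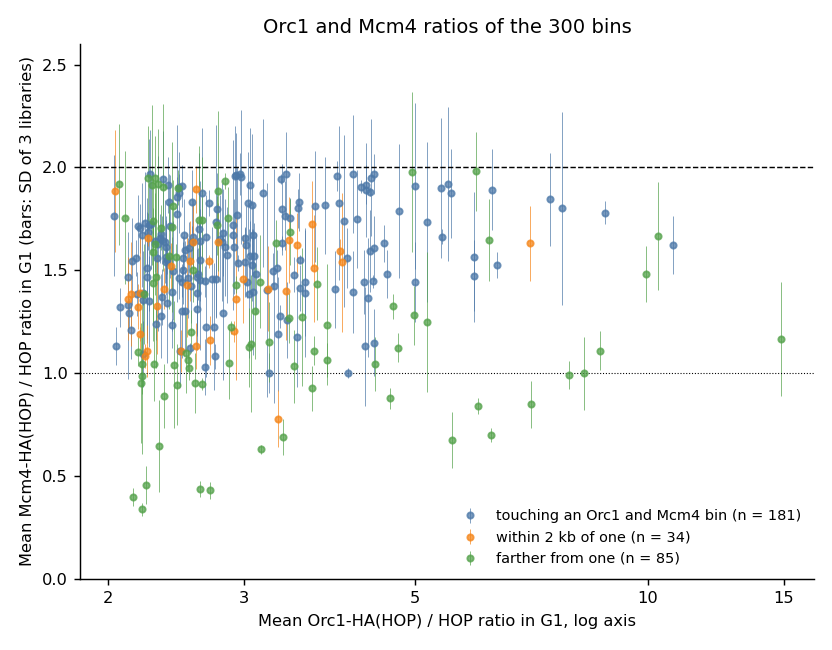
Mean Mcm4-HA(HOP) ratio (vertical axis, error bars are the SD of 3 libraries) against the mean Orc1-HA(HOP) ratio (horizontal log axis) for the 300 bins, coloured by their distance from the nearest Orc1 and Mcm4 bin. Most points lie between the dotted line at 1 and the dashed limit at 2, and 23 have a mean below 1.

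Most of these bins lay beside a bin that passed both limits. A total of 181 bins touched an Orc1 and Mcm4 bin, 34 lay within 2 kb of one and 85 lay farther away. In the 181 touching bins the median Orc1 ratio was 2.82 and the median Mcm4 ratio 1.61, while the neighbours that passed both limits had medians of 5.31 and 2.72. The neighbour had the higher Orc1 ratio for 175 of the 181, so these bins were with 6 exceptions the flank of a stronger Orc1 bin. The 34 bins within 2 kb had medians of 2.6 for Orc1 and 1.42 for Mcm4. In the 85 farther bins the medians were 2.77 and 1.24, and a bin with a Mcm4 ratio of 2 or more stood within 2 kb in 3 of them. Of the 3 classes, these 85 bins had the lowest median Mcm4 ratio. They include 7 bins at the CUP1 repeat and 11 at ORC1 and URA3, with Mcm4 ratios of 0.338 to 1.11. Those bins are set apart below because the DNA of the strains can differ there. The medians here and the profile of the farther bins include them.

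The profile of median ratios around the bins uses the libraries that chose the bins and their distance classes. Its shape thus follows in part from the choice, and it is a description and no separate support. The farther bins formed a peak of Orc1 that was centred on the bin, with a median window ratio of 2.86 at the centre, 2.11 at 500 bp to the left and 1.01 at 3 kb to the right. Mcm4 at the same places was 1.24 at the centre, 1.08 at 500 bp and 0.993 at 3 kb. Around the Orc1 and Mcm4 bins the medians at the centre were 4.28 for Orc1 and 2.90 for Mcm4. Around the touching bins the profile had its maxima to the sides, with Orc1 at 3.32 and Mcm4 at 2.08 at 500 bp to the left.

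**Figure D2:**
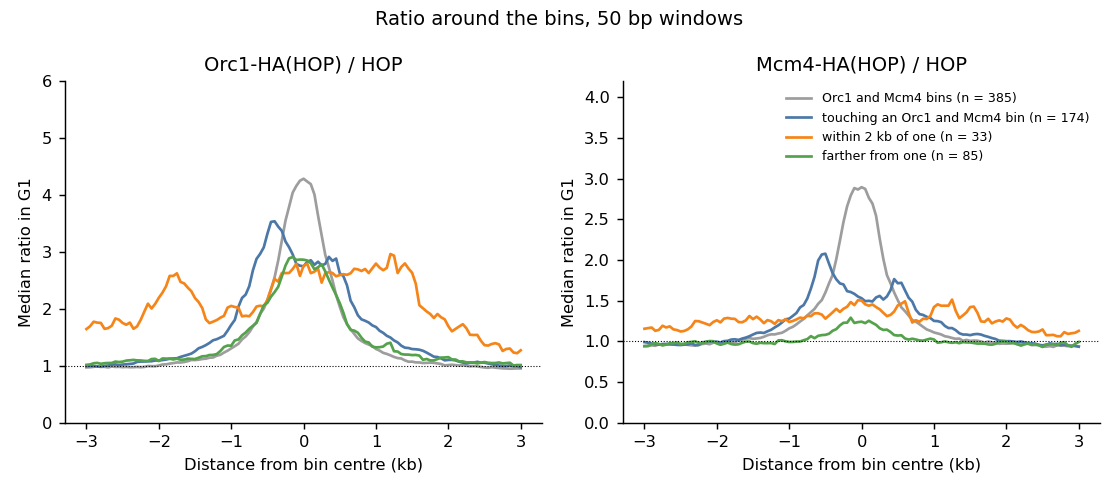
Median ratio over HOP in 50 bp windows (vertical axes) by distance from the bin centre in kb (horizontal axis), for Orc1 on the left and Mcm4 on the right, in bins that lie at least 3 kb inside a chromosome. The farther bins have an Orc1 peak of 2.86 at the centre and a Mcm4 value of 1.24 there, and the touching bins are highest at the sides. The libraries shown are those that chose the bins and their classes.

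The bins were spread over all 16 chromosomes and joined into 228 regions, of which 186 were a single bin. Chromosome III held 31 bins, the most of any chromosome, and the longest region, of 13 bins, lay beside HML. Chromosome ends were common among them. The outer 5 kb held 14 bins (4.67% against 1.33% of all bins and 9.03% of the Orc1 and Mcm4 bins). The stretch from 5 to 20 kb held 81 bins (27% against 3.99% and 15.7%), and the interior held the other 205. Of the 85 farther bins, 67 were interior, and these include the bins at ORC1, URA3 and CUP1. These shares describe the chosen bins and were not tested.

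Gene positions could be assigned to 274 bins. The other 26 lie to the right of the integrated constructs on chromosomes IV and XV, where the coordinates of the HA libraries are shifted, and they carry no gene names and enter none of the comparisons with MYC or FLAG libraries. By its midpoint, a bin was inside a gene in 117 cases (39% of the 300, against 63.2% of all bins and 15.9% of the Orc1 and Mcm4 bins). It lay between genes in tandem in 71 cases, between divergent genes in 51, between convergent genes in 26 and beyond the last gene in 9. Of the 85 farther bins, which include those at ORC1, URA3 and CUP1, 42 (49.4%) were inside genes. The bins of this kind were therefore between the Orc1 and Mcm4 bins and the genome in how often they fell in genes.

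A tRNA gene lay within 1 kb of 28 bins (10.2% of those with gene positions, against 10.9% of the Orc1 and Mcm4 bins and 5.81% of all bins), and a snoRNA gene within 1 kb of 3 (1.09% against 1.39% of all bins). Gene lists were also looked at within 1 kb. HML and HMR accounted for 10 bins, and 5 of the 15 genomic bins near them were Orc1 and Mcm4 bins. Genes of the CLB2 cluster, which Fkh1 and Fkh2 control, accounted for 4 bins (1.46% against 0.901% of all bins), of which 3 were next to TEM1, the GTPase of mitotic exit, beside ORC1 and the other at IQG1, a scaffold of the cytokinetic ring. Glycolytic genes accounted for 5 bins (1.82% against 0.609%), at CDC19, HXK1, ENO1, TDH1 and TDH2. Ribosomal protein genes accounted for 4 (1.46% against 3.63%), and no bin lay near the listed pheromone response genes.

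Some of the bins lie where the DNA of the strains compared can differ, or where it differs from the reference, and they are set apart here. The Orc1 strain carries a tagged ORC1 marked with URA3, and 11 bins were at these genes: 9 at ORC1 with its neighbours SMA2 and TEM1 on chromosome XIII (141001 to 145500) and 2 at URA3 on chromosome V (116001 to 117000). Their Orc1 ratios were 2.22 to 8.66 and their Mcm4 ratios 0.674 to 1.11. At ORC1 itself (bin 144001 to 144500) the Orc1 libraries had signals of 13.1, 13.4 and 13.4, the Mcm4 libraries 1.40, 1.94 and 1.5 and the HOP libraries 1.34, 2.18 and 1.32. The URA3 bin at 116501 to 117000 had 9.02, 12.1 and 10.7 in Orc1 against 1.88, 1.55 and 1.65 in HOP. All 3 Orc1 libraries were far above the other groups at both genes.

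A further 7 bins covered the CUP1 metallothionein repeat on chromosome VIII (212501 to 216000), whose copy number varies between strains. Its HOP signal of 7.59 to 10.5 was the highest of any of the 300 bins. At 213001 to 213500 the Orc1 libraries had signals of 27.7, 26.1 and 23.0, the HOP libraries 8.01, 7.01 and 7.76 and the Mcm4 libraries 5.98, 4.82 and 4.87. The Mcm4 ratios of the repeat, 0.338 to 0.688, were the lowest found, so here Mcm4 stood below the control and Orc1 above it. In this bin the 3 groups did not overlap, and that Orc1 stood above the others largely follows from the choice of the bins.

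The last of these are 3 bins at MAT on chromosome III (199501 to 201000), with Orc1 ratios of 4.01 to 7.04 and Mcm4 ratios of 1.28 to 1.63. The reference sequence carries MATα at this place while the strains are MATa, and its sequences are nearly identical to HML. A legend of the study says that the α genes were removed from MAT in the reference for its plot of chromosome III. Their reads were thereby assigned to HMLα. In the deposited counts the 3 bins over MATALPHA2 and MATALPHA1 held reads in all 60 libraries (mean signal of at least 0.553), and these bins are reported as deposited. MATa strains hold no α genes at MAT, so reads of the α genes in these bins cannot stem from MAT. How much of each bin is flanking sequence shared with HML was not tested. Without the bins at ORC1, URA3, CUP1 and MAT, 279 of the 300 remain. At the bins of ORC1, URA3 and CUP1 a difference in DNA content between strains and binding cannot be told apart. At those of MAT, binding at MAT and at HML cannot be told apart.

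Among the 10 regions with the highest Orc1 ratio, the first was between FPT1 and PRY2, which encodes a secreted sterol-binding protein, on chromosome XI (462501 to 464000). In its highest bin (463001 to 463500) the Orc1 libraries had signals of 10.8, 10.3 and 8.37, the Mcm4 libraries 0.832, 0.562 and 0.911 and the HOP libraries 0.855, 0.558 and 0.568. The Orc1 ratio was 14.9 ± 1.93 (SD, n = 3) and the Mcm4 ratio 1.16 ± 0.277. Here every Orc1 library was above every other library, which largely follows from how the bins and these regions were chosen. Mcm4 and HOP overlapped, and the nearest Orc1 and Mcm4 bin was 4.5 kb away.

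The bin at HUG1, a small inhibitor of ribonucleotide reductase made after DNA damage, on chromosome XIII (158501 to 159000) was next. Its Orc1 signals were 10.5, 9.38 and 8.95 with HOP at 0.73, 0.806 and 1.13, a ratio of 10.8 ± 0.875. Mcm4, at 1.44, 1.32 and 1.57, had a ratio of 1.62 ± 0.140, and the bin touched an Orc1 and Mcm4 bin. Between CYC3 and CDC19, the pyruvate kinase gene, on chromosome I (70001 to 71000) the highest bin had Orc1 signals of 5.13, 4.55 and 3.8, Mcm4 signals of 0.626, 0.703 and 0.852 and HOP signals of 0.455, 0.330 and 0.523. Its ratios of 10.3 ± 1.53 and 1.67 ± 0.263 rest on a HOP signal of 0.436, below the 20th percentile, and no Orc1 and Mcm4 bin lay within 27.5 kb.

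Of the other regions in the highest 10, those at ORC1 and MAT are described above. The region between FLO1, a flocculin gene, and YAR061W on chromosome I (214001 to 215000) had an Orc1 ratio of 8.81 ± 0.348 and a Mcm4 ratio of 1.78 ± 0.0561, and that between FLO5, a similar flocculin gene, and YHR212W-A on chromosome VIII (534501 to 535500) had 6.28 ± 0.555 and 1.89 ± 0.197. FLO1 and FLO5 are near copies, so reads may be placed at either. The region at HMLALPHA1 on chromosome III (13501 to 14500) reached 7.74 ± 0.597, with Mcm4 at 1.80 ± 0.470. A bin on chromosome IV without a gene name (704001 to 704500) had 7.47 ± 0.156 and 1.84 ± 0.225. At YIL060W on chromosome IX (246001 to 247500) the ratios were 6.37 ± 0.763 and 1.52 ± 0.0632. The regions at FLO1, FLO5, HMLALPHA1 and YIL060W and the bin on chromosome IV each touched an Orc1 and Mcm4 bin. In the highest bins of the 10 regions with the highest Orc1 ratio, the Mcm4 ratio lay above 1.5 everywhere but at FPT1 and ORC1.

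**Figure D3:**
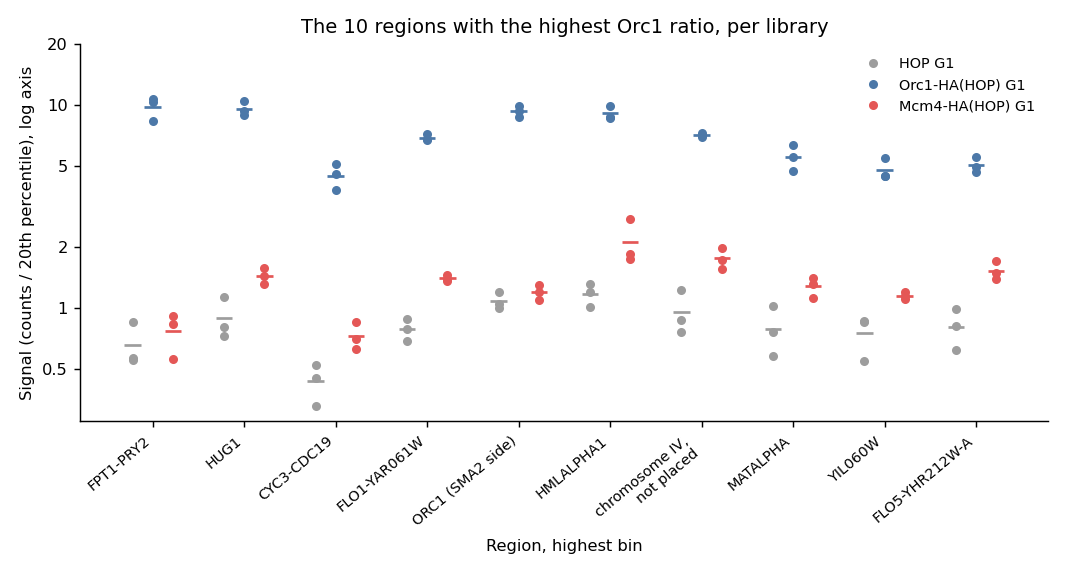
Signal in each library (points, log axis, counts divided by the 20th percentile) and the mean of 3 (short lines) in the highest bin of the 10 regions with the highest Orc1 ratio, for Orc1-HA(HOP), HOP and Mcm4-HA(HOP) in G1. All Orc1 points lie above all points of the other groups in each region, which largely follows from the choice of the bins by these ratios. The Mcm4 points lie closest to the HOP points at FPT1-PRY2 and ORC1.

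The 5 regions with the lowest mean Mcm4 ratio were the CUP1 repeat (0.482), URA3 (0.686), LGE1 on chromosome XVI (0.778), a bin on chromosome XV without a gene name (856501 to 857000, 0.890) and YMR320W on chromosome XIII (0.942). LGE1, a gene needed for ubiquitination of histone H2B (454001 to 454500), had Orc1 signals of 4.54, 4.53 and 3.64, Mcm4 signals of 1.19, 0.862 and 0.923 and HOP signals of 1.5, 1.32 and 1.01. The YMR320W bin (917001 to 917500) had low signals throughout, with Orc1 at 0.903, 0.827 and 0.766 and HOP at 0.309, 0.339 and 0.368. Of the 3 regions outside the loci set apart, LGE1 had the highest Orc1 signal.

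The 5 regions farthest from any Orc1 and Mcm4 bin had Mcm4 ratios of 1.5 to 1.95 in their highest bin. They were at NTO1 and SRO7 on chromosome XVI (633501 to 634500, 49 kb away), SPE1 on chromosome XI (98001 to 98500, 42 kb), STE3 on chromosome XI (113501 to 114000, 39 kb), SEN34 on chromosome I (159501 to 160000, 34.5 kb) and SUP8 on chromosome XIII (837001 to 838000, 31.5 kb). At SPE1, the gene of ornithine decarboxylase, the Orc1 libraries were 4.17, 3.52 and 4.36, the Mcm4 libraries 2.01, 1.76 and 2.13 and the HOP libraries 1.26, 1.15 and 1.1. STE3, the receptor gene of the opposite mating type, had 3.82, 4.04 and 3.52 in Orc1, 2.44, 2.22 and 1.98 in Mcm4 and 1.42, 1.59 and 1.41 in HOP. At each of these 2 genes the 3 groups did not overlap, and Mcm4 lay between HOP and Orc1, at ratios of 1.69 and 1.5. That Orc1 stood highest largely follows from the choice of the bins by these libraries. Mcm4 at or above HOP was common, since 250 of the 300 bins had a ratio of 1 or more in all 3 libraries. Nothing particular to these genes is read from the order. The Mcm4 ratio in the highest bin was 1.95 ± 0.204 at SRO7, 1.72 ± 0.143 at SEN34 and 1.75 ± 0.15 at SUP8, a tRNA gene.

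Over 20 kb from a chromosome end, 28 regions with 51 bins had a mean Mcm4 ratio less than 25% above that of HOP. Their highest Orc1 ratios ran from 2.05 to 14.9 with a median of 3.15, and 13 of the 28 stayed below 3. Apart from FPT1, ORC1, URA3, CUP1 and LGE1 they included a tRNA gene region on chromosome VIII (YNCH0004C, 133001 to 134000, Orc1 4.75 and Mcm4 1.12 in the highest bin) and YPL060C-A, a retrotransposon gene, on chromosome XVI (439001 to 440000, 5.17, with a mean Mcm4 ratio of 1.24 over its 2 bins). YIL092W on chromosome IX (189001 to 190500) had 4.67 and 1.32 in the highest bin, EXG1, an exo-glucanase gene, on chromosome XII (730001 to 730500) 4.42 and 1.15, and TCD2 on chromosome XI (388501 to 389000) 4.30 and 1.13.

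Of the same regions, RPS6B, a ribosomal protein gene, on chromosome II (591501 to 592000) had an Orc1 ratio of 4.09 and a Mcm4 ratio of 1.00. BLM10, a proteasome activator gene, on chromosome VI (127501 to 128500) had 3.67 and 0.926 in the highest bin, and SAG1, the α-agglutinin gene, on chromosome X (443001 to 443500) had 3.23 and 1.00. The 2 bins between a tRNA gene and the rDNA on chromosome XII (449001 to 450000) had ratios of up to 2.75 for Orc1 and 1.08 for Mcm4. The lowest in Orc1 were at YML045W, a retrotransposon gene on chromosome XIII (2.22), between RAD2 and TNA1 on chromosome VII (2.22), at ATP1 on chromosome II (2.29), at SAP4 on chromosome VII (2.31) and 1 bin on chromosome XV (2.05). The others were DTR1, MSH4, YHL009W-B, SNP1, TDH2 with MET3, POB3 and 3 bins without gene names. Of the 28 regions, 10 lay over 10 kb from an Orc1 and Mcm4 bin. Others touched such a bin and may be its flank, which was not tested. These were RPS6B, SAG1, EXG1, TCD2, DTR1, MSH4, SAP4, SNP1, POB3, YML045W and the region beside the rDNA. The bins without gene names at 1242001 on chromosome IV and at 784501 and 909501 on chromosome XV also touched one.

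The left arm of chromosome III carried the longest run of these bins. From 4501 to 11000, across GEX1 (a glutathione exchanger) and VBA3 (a permease of basic amino acids), 13 bins in a row had Orc1 ratios of 2.54 to 3.69 and Mcm4 ratios of 0.945 to 1.62. In the bin at 6501 to 7000 in GEX1 the Orc1 libraries had signals of 6.17, 5.2 and 4.58, the Mcm4 libraries 2.12, 2.24 and 2.32 and the HOP libraries 1.80, 2.42 and 2.06. Orc1 was above both other groups there, and Mcm4 and HOP overlapped. After the Orc1 and Mcm4 bin at 11001, a further 3 bins across HMLALPHA2 had Orc1 ratios of 3.67 to 4.36, and the HMLALPHA1 bins at 13501 and 14001 had 5.95 and 7.74. Beyond the Orc1 and Mcm4 bins between HML and CHA1, with ratios of up to 14.4, the last bin at 16001 in CHA1, a serine deaminase gene, had 2.68. At HMR the 7 bins had Orc1 ratios of up to 5.51 and alternated with Orc1 and Mcm4 bins at 292501 and 294501. HML, MAT and HMR share sequence, and GEX1 and VBA3 have near copies elsewhere, so the place of reads within these copies is uncertain.

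**Figure D4:**
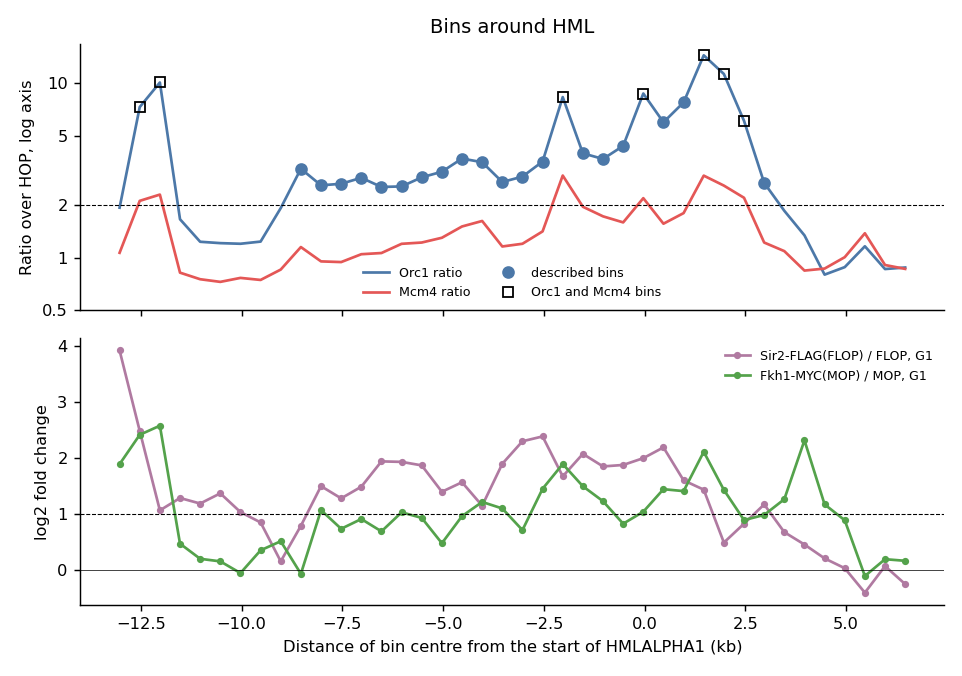
Upper panel, Orc1 and Mcm4 ratios over HOP (log axis) in 500 bp bins by distance from the start of HMLALPHA1 in kb, with filled points for the described bins and squares for the Orc1 and Mcm4 bins. Lower panel, log2 fold change of Sir2-FLAG(FLOP) over FLOP and of Fkh1-MYC(MOP) over MOP in G1 in the same bins, where Sir2 stays above 1 over 18 of the 19 described bins. Sir2 is also above 1 in other bins of the arm.

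Sir2 was higher over FLOP in 51 of the 274 bins that could be tested (18.6%, against 1.62% of all bins tested) and lower in 13 (4.74%, against 1.26%). Calls here and below needed a change of at least 2-fold with an adjusted p under 0.05 in edgeR's quasi-likelihood fit (Benjamini-Hochberg, over all bins tested). Of the 366 Orc1 and Mcm4 bins tested, 64 were higher and 35 lower. The median log2 fold change was 0.10 in the described bins and 0.19 over all bins. With TMM normalization the median of all bins moved by -0.20 to -0.01 and that of the described bins to -0.10. The median of the described bins thus lay below that of all bins under both scalings, while its sign turned. Under TMM, 45 were higher and 14 lower, and of all calls 29.8% instead of 56.2% were higher.

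Most of the Sir2 calls were near chromosome ends and HML. Within 5 kb of an end 8 of 12 bins were higher (23.2% of all bins there) and from 5 to 20 kb 37 of 77 (11.3%), while in the interior 6 of 185 were higher (0.938%). On the HML side of chromosome III 18 of 19 bins were higher, with log2 changes of 1.15 to 2.38, and the 19th, at 4501, was at 0.79. All of these 18 are counted among the 37 from 5 to 20 kb. Near HMR 1 of 7 described bins was higher, at HMRA2 (293001 to 293500). The Orc1 and Mcm4 bins there, at 292501 and 294501, were higher as well, with log2 changes of 1.52 and 1.24. The 6 described interior bins with higher Sir2 were that at HMRA2, the 3 at MAT, where reads of the α genes cannot stem from MAT, and the 2 beside the rDNA.

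At HMLALPHA1 (13501 to 14000) Sir2 had signals of 4.02, 4.81 and 4.30 and FLOP 0.817, 1.05 and 0.956 (log2 fold change 2.19, adjusted p = 7.51e-13). At HMRA2 Sir2 had 3.08, 2.85 and 3.58 and FLOP 0.826, 1.12 and 0.677 (1.88, adjusted p = 6.84e-11). Beside the rDNA (XII 449501 to 450000) the libraries were at 2.31, 2.65 and 2.12 against 0.843, 0.827 and 0.727 (1.55, adjusted p = 5.64e-11). In all these the groups did not overlap, as in 62 of the 64 bins called. The call itself makes this likely, and the count is not given over all called bins, so nothing particular to these bins is read from it.

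The largest Sir2 changes were beside subtelomeric gene families whose copies are alike. Between YFL064C and COS4 on chromosome VI (4501 to 5000) Sir2 had 8.78, 12.8 and 7.19 and FLOP 1.06, 0.869 and 1.22 (log2 fold change 3.45, adjusted p = 5.88e-17). Between YLL066C and PAU18 on chromosome XII (11001 to 11500) the values were 10.5, 13.3 and 8.36 against 1.17, 1.20 and 1.44 (3.23, adjusted p = 7.23e-16). Between YRF1-6 and COS1 on chromosome XIV (6501 to 7000) they were 12.3, 18.4 and 10.7 against 1.58, 1.54 and 1.65 (3.08, adjusted p = 9.71e-15). At these ends the Orc1 ratios were 3.28, 2.73 and 3.01, so Orc1 and Sir2 were both raised there with Mcm4 ratios of 1.42 to 1.54.

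The 13 bins with lower Sir2 signal held none of the outer 5 kb, and 10 were interior. The largest decrease was between a tRNA gene and NOP9, a gene for an RNA-binding factor of ribosome assembly, on chromosome X (416501 to 417000), with Sir2 at 0.253, 0.131 and 0.191 and FLOP at 0.88, 1.02 and 0.857 (log2 fold change -2.23, adjusted p = 1.68e-11). Next was the bin between SHH3 and a tRNA gene on chromosome XIII (504001 to 504500), with 0.214, 0.343 and 0.463 against 1.2, 1.31 and 1.26 (-2.16, adjusted p = 4.23e-13). Between SEO1, a permease gene, and YAL065C on chromosome I (10001 to 10500) the values were 0.721, 0.493 and 0.836 against 1.92, 2.23 and 1.74 (-1.58, adjusted p = 2.89e-11). A tRNA gene lay within 1 kb of 5 of the 13, and among the highest Orc1 regions YIL060W (-1.20) and FLO1 (-1.16) were also lower. The share of lower bins near tRNA genes is not given over all bins. The CUP1 repeat held 2 of the 13, and without the bins set apart the 64 calls in both directions became 59.

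Fkh1 was called at 80 of the 274 bins in at least 1 of 6 comparisons over controls or over fkh1-dbm (29.2%, against 6.48% of the 20860 bins with gene positions that were tested in all 6). With the MYC tag in G1, 74 bins were higher over MOP (27.0%, against 5.63% of all bins) and 1 was lower (against 0.391%). In unsynchronized cells 34 were higher (12.4%, against 2.93%) and 0 lower (against 0.0416%). With the FLAG tag 16 bins were higher over FLOP in unsynchronized cells (5.84%, against 1.6%), 0 were lower (against 0.00416%), and 13 were higher in G1 (4.74%, against 0.686%). Over the DNA-binding mutant 22 bins were higher with MYC (8.03%, against 3.23%) and 17 with FLAG (6.20%, against 1.78%). No described bin was lower in the other 3 comparisons, by edgeR or by DESeq2, and by edgeR 0% of all bins tested were.

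In each comparison the share was larger than that of all bins and smaller than that of the Orc1 and Mcm4 bins, where 166 of 365 were higher with MYC in G1 and 73 to 95 of 366 in the other 5 comparisons. The median log2 fold change of the described bins was 0.51 with MYC in G1, against 0.03 over all bins, and 0.11 to 0.21 in the other 5, against -0.04 to 0.01. These counts are descriptions, since bins that touch share reads and the bins were chosen as a group. All 25 bins called with FLAG were among the 80 called with MYC (100% of the first list and 31.25% of the second). This overlap is not given over all bins, so nothing particular to the described bins is read from it.

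**Figure D5:**
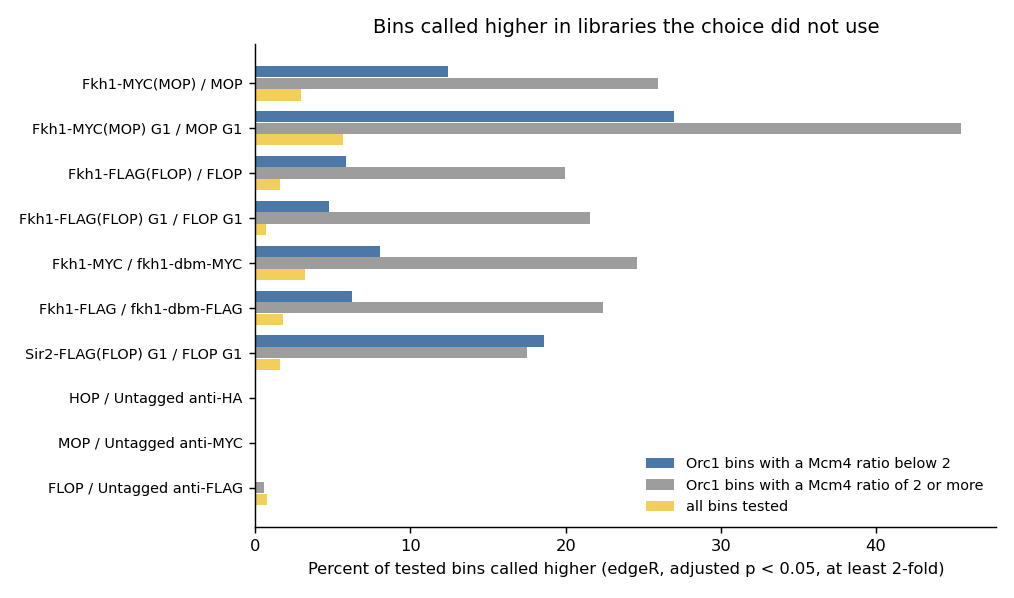
Percent of tested bins called higher (horizontal axis) in 10 comparisons whose libraries the choice of bins did not use, for the described bins, the Orc1 and Mcm4 bins and all bins tested. In the Fkh1 comparisons the described bins lie between the other groups, with 27.0% for Fkh1-MYC(MOP) in G1, and in Sir2 they reach 18.6%.

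In all 6 Fkh1 comparisons 6 bins were called. They were the 2 bins at YPR195C on chromosome XVI (927501 to 928500), the bin at SKN1 on chromosome VII (777501 to 778000), HSP104 on chromosome XII (91001 to 91500), the bin between YEL075C and YEL073C on chromosome V (6001 to 6500) and that between YRF1-6 and COS1 on chromosome XIV (7501 to 8000). The 2 YPR195C bins were 4.5 and 5 kb from the nearest Orc1 and Mcm4 bin, and the other 4 touched one. The number called in all 6 comparisons is not given over all bins, so nothing particular to the described bins is read from it.

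YPR195C had the largest log2 fold change of the described bins in 4 of the 6 comparisons, and in G1 it was lower (2.95 with MYC and 1.42 with FLAG) than that of SKN1. In its bin at 928001 to 928500 Fkh1-MYC(MOP) had signals of 5.69, 5.24 and 6.10 against 0.545, 0.335 and 0.687 in MOP (log2 fold change 3.67, adjusted p = 1.28e-25, edgeR). Fkh1-MYC had 4.64, 5.61 and 6.41 against 0.583, 0.512 and 0.581 in fkh1-dbm-MYC (3.44, adjusted p = 2.31e-41). With FLAG, Fkh1-FLAG(FLOP) had 2.37, 3.38 and 3.89 against 0.465, 0.574 and 0.562 in FLOP (2.61, adjusted p = 3.11e-23). The groups did not overlap with either tag. The same held at every described bin called in the 6 Fkh1 comparisons. The call itself makes this likely, and the count is not given over all called bins. Here and below nothing particular to these bins is read from it. The same bin had an Orc1 ratio of 3.43 ± 0.655 and a Mcm4 ratio of 1.27 ± 0.121.

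At SKN1, a gene of cell wall glucan synthesis, the log2 fold change was the largest of the described bins in G1 with either tag. Fkh1-MYC(MOP) had 10.8, 12.0 and 10.4 in G1 against 1.14, 1.14 and 1.63 in MOP (log2 fold change 3.26, adjusted p = 8.29e-20), and in unsynchronized cells 5.22, 5.12 and 4.88 against 1.27, 1.47 and 1.21 (2.03, adjusted p = 4.06e-16). Fkh1-FLAG(FLOP) in G1 had 2.3, 1.95 and 2.25 against 0.813, 0.852 and 0.840 (1.57, adjusted p = 1.37e-14). The bin had an Orc1 ratio of 2.62 ± 0.0427 and a Mcm4 ratio of 1.70 ± 0.372. At HSP104, the gene of the protein disaggregase, the log2 fold changes in the 6 comparisons were 1.13 to 2.41, with no overlap of groups.

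JJJ3, a gene of diphthamide synthesis, on chromosome X (612501 to 613000) had 9.55, 8.67 and 9.82 with MYC in G1 against 0.971, 1.22 and 1.16 in MOP (log2 fold change 3.10, adjusted p = 2.98e-19). SEN34, which encodes a subunit of the tRNA splicing endonuclease and lay 34.5 kb from an Orc1 and Mcm4 bin, had 6.59, 7.16 and 6.58 against 1.1, 0.952 and 0.791 (3.03, adjusted p = 3.25e-18). Both had no overlap between groups, like every described bin called in the Fkh1 comparisons. At the left end of chromosome XV (1 to 500, YOL166W-A) Fkh1-MYC(MOP) had 2.40, 3.15 and 3.66 in unsynchronized cells against 0.732, 0.509 and 0.742 (2.15, adjusted p = 1.96e-15).

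Between YEL075C and YEL073C on chromosome V (6001 to 6500) Fkh1-FLAG(FLOP) had 2.38, 2.70 and 3.22 against 0.823, 0.969 and 0.713 in FLOP (log2 fold change 2.02, adjusted p = 2.67e-20). Between CYC3 and CDC19 (70501 to 71000), one of the highest Orc1 regions, Fkh1-FLAG had 3.05, 2.79 and 3.46 against 0.888, 0.870 and 0.813 in fkh1-dbm-FLAG (1.96, adjusted p = 7.88e-29). The groups did not overlap at either. At TEM1 (XIII 145001 to 145500), the CLB2 cluster gene beside ORC1, Fkh1-MYC had 2.23, 2.57 and 2.13 against 1.12, 1.14 and 1.13 in fkh1-dbm-MYC (1.08, adjusted p = 5.18e-17). IQG1, the other CLB2 cluster gene, had log2 fold changes of 0.06 for Fkh1-FLAG over fkh1-dbm-FLAG and -0.22 with MYC in G1.

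The lower bin of the G1 MYC comparison was at the tRNA gene YNCH0004C on chromosome VIII (133001 to 133500), with Fkh1-MYC(MOP) at 0.429, 0.872 and 0.481 and MOP at 1.34, 1.1 and 1.13 (log2 fold change -1.09, adjusted p = 0.00838). Leaving out Fkh1-MYC(MOP) G1 replicate 1 gave -0.87 with an adjusted p of 0.0530, leaving out replicate 3 gave -0.95 and leaving out MOP G1 replicate 1 gave -0.97 with an adjusted p of 0.0735, so this call rests on single libraries. The highest bin at FPT1 and the bins at HUG1 and LGE1 were called in no Fkh1 comparison and not with Sir2, while the bin at PRY2 (463501 to 464000) was higher with MYC in G1 (log2 fold change 1.77, adjusted p = 1.82e-10).

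By position, Fkh1 was called in at least 1 comparison at 61 of 160 touching bins (38.1%), at 6 of 32 within 2 kb (18.8%) and at 13 of 82 farther bins (15.9%). Over all bins at the same distances that were not themselves Orc1 and Mcm4 bins, the described ones included, the shares were 28.9%, 9.86% and 4.67%. Within 5 kb of an end it was called at 8 of 12 bins, from 5 to 20 kb at 32 of 77 (41.6%) and in the interior at 40 of 185 (21.6%), against 36.0%, 14.5% and 5.70% of all bins there, so Fkh1 calls were more common toward the ends in the whole genome too. Sir2 and Fkh1-MYC in G1, whose libraries and controls differ, were both higher at 35 bins (68.6% of the Sir2 bins and 47.3% of the Fkh1 bins). Of all 375 bins with higher Sir2, 37.3% also had higher Fkh1-MYC in G1. From 5 to 20 kb from an end, where 24 of the 35 lay, the share of Sir2 bins was 64.9% among the described bins and 66.3% among all bins, and nothing particular to the described bins is read from it. Neither protein was called, in either direction, in any comparison at 167 of the 274 bins. Of the 82 farther bins 64 had neither raised. Of all 20860 bins tested, 1351 had Fkh1 raised in at least 1 comparison and 375 had Sir2 raised. Of the 18012 of them that were farther, these were 842 and 198. Having neither raised was thus more common over all bins than among the described ones.

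The change with Fkh1-MYC over MOP differed between G1 and unsynchronized cells, by the interaction of protein and culture, at 23 bins. It was larger in G1 at 21 (7.66%, against 1.1% of all bins) and smaller at 2 (against 0.195%). Of the 366 Orc1 and Mcm4 bins tested, 71 (19.4%) had a larger change in G1, a greater share than of the described bins. Of the 21, 19 touched an Orc1 and Mcm4 bin and 2 were farther away. With the FLAG tag 0 bins had a larger change in G1 (against 0.0332%) and 1 a smaller one (against 0.195%), YPR195C (928001 to 928500), whose log2 change over FLOP differed by -1.20 in G1 (edgeR, adjusted p = 0.000143). With the single middle window of each bin, which holds fewer reads, 2 bins in place of 23 were called with MYC, at SEN34 and between YNCD0005C and YDL007C-A, and 4 with FLAG. Without Fkh1-MYC(MOP) replicate 1 the MYC count was 15, and without Fkh1-FLAG(FLOP) replicate 1 or FLOP G1 replicate 1 the FLAG count was 3.

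No described bin was called between a LexA control and the untagged strain. For HOP over the untagged strain with anti-HA 0 of 300 bins were called by edgeR and 0 by DESeq2, with 35 at an unadjusted p below 0.05 (13 bins of 24066, or 0.054%, were higher and 0.133% lower). For MOP 0 of 274 were called by edgeR and 0 by DESeq2, with 20 at an unadjusted p below 0.05 (0.0348% of all bins higher and 0.0522% lower). For FLOP 0 of 274 were called by edgeR and 0 by DESeq2, with 54 at an unadjusted p below 0.05 (0.76% higher and 1.18% lower). The median signal of the bins was 1.11 in HOP and 1.13 in the untagged strain with anti-HA, against 1.20 and 1.23 over all bins. It was 1.15 in MOP against 1.22, and 1.08 in FLOP against 1.16. In unsynchronized controls the described bins were thus slightly below the genome median with every tag. Their median signal in Fkh1-MYC(MOP) in G1 was 1.78, against 1.37 over all bins.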

How the data were processed

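The deposited files hold, per library, the count of reads overlapping each 50 bp window. The authors demultiplexed 150 bp paired-end reads, aligned with Bowtie2, discarded duplicates (SAMtools) and counted (bedtools), with no scaling. Neighboring windows and bins share reads. The genome sequence came from the Saccharomyces Genome Database. Its release is dated in the methods but not named, and gene names come from RefSeq R64. Signals are as in the report. Tests used sums of unsmoothed counts per bin, library sizes from the 20th percentile, a minimum of 10 counts in 3 libraries, and the quasi-likelihood test of edgeR 4.0.16 (R 4.3.3, limma 3.58.1), with DESeq2 1.42.0 as an alternative. The software was tested on simulated data. Plots and summaries used Python 3.11.15, numpy 2.4.6, pandas 2.3.3 and matplotlib 3.10.9. Bins right of the constructs on IV and XV entered only comparisons among libraries with the same coordinates. The labels name MPy54 and MPy184 where the study's legends name other strains of that genotype.

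The bins, lists and tests were chosen with earlier results of these data known. Named bins are, among regions of joined bins, the 10 with the highest Orc1 ratio, the 5 with the lowest Mcm4 ratio, the 5 farthest from an Orc1 and Mcm4 bin, the 3 largest changes in each direction per comparison, bins within 1 kb of listed genes, and regions over 20 kb from an end with a mean Mcm4 ratio less than 25% above HOP. GEX1, VBA3 and the bins at the limits were named after their values were seen. Centromeres were not used here.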

Additional observations from a re-analysis of the deposited data

Results flagged for a closer look

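Differences between G1 and unsynchronized cells in the change of Fkh1 over its LexA control, tested as the interaction of protein and culture by edgeR, brought 24 results here. They are log2 differences, G1 minus unsynchronized, and no explanation was tested. With the single middle window of each bin 21 of the 24 lost their call, and those at SEN34, YNCD0005C-YDL007C-A and, with FLAG, YPR195C kept it. Leaving out 1 library at a time ended the call at least once at 14 of the 24. With the MYC tag the largest was at SEN34 (1.92), whose log2 change was 3.03 in G1 and 1.11 in unsynchronized cells. SEN34 had MOP signals of 1.1, 0.952 and 0.791 in G1 and 1.74, 1.28 and 1.41 in unsynchronized cells. PTC4 (1.36), YNCD0005C-YDL007C-A (1.35), YIR043C (1.34), YML133C-COS3 (1.28), POB3 (1.27), MET5-IML1 (1.26) and SKN1 (1.24) followed. The differences at SPO75 and COS8 were 1.20 each, and those at YIL059C-RGI2, YBL111C-PAU9 and YIL177C-PAU14 were 1.14 each. YRF1-7-PAU22 (1.11), JLP2 (1.06), IMD2 (1.05), PAU8 (1.05), HSP104 (1.04), the bin of THS1 and RCI37 (1.03), HIT1-YNCJ0026W (1.02) and PAU22 (1.01) were the smallest. COS, PAU and YRF1 genes have near copies, so the place of their reads is uncertain.

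In the opposite direction were the adjoining bins at the tRNA gene YNCH0004C (-1.44) and between it and YNCH0005W (-1.24), and each of them lost its call when any of several single libraries was left out. With the FLAG tag the bin at YPR195C differed (-1.20), with a log2 change of 2.61 in unsynchronized cells and 1.42 in G1. Its difference with MYC was not called.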

How the results depend on the processing

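The number of bins depends on the limits that define them. It was 754 with an Orc1 limit of 1.5, 91 with a limit of 3 and 142 with a mean Mcm4 ratio below 1.5. Without the moving median it was 309 (267 of the 300 kept), with the library median as divisor 312 (276 kept), with Mcm4 below 2 in each library 245, and without 1 library at a time 296 to 367. Leaving out the bins at ORC1, URA3, CUP1 and MAT, chosen after seeing the data, left 279.

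The counts of called bins stayed within 1.5 times with TMM, DESeq2, no filter, the single middle window and without those loci, except that the middle window gave 2 bins for the G1 difference with MYC and 4 with FLAG. The cause was not tested. Without 1 library at a time the counts were 31 to 41 and, in G1, 72 to 85 for Fkh1-MYC(MOP), 14 to 19 and, in G1, 11 to 14 for Fkh1-FLAG(FLOP), 20 to 23 and 16 to 18 over fkh1-dbm with MYC and FLAG, 61 to 70 for Sir2, and 15 to 24 and 1 to 3 for the G1 differences with MYC and FLAG. The controls stayed at 0.

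Replicate numbers did not pair the libraries, since same-numbered deviations correlated at -0.276 to 0.147 and in no comparison were all 3 over 0.1. With the replicate block the counts were 35 and, in G1, 75 for Fkh1-MYC(MOP), 65 for Sir2, 22 for the G1 difference with MYC, and those without the block elsewhere. Of the 25 named changes over controls or fkh1-dbm, only that at YNCH0004C lost its call, with the middle window and without 1 of 3 libraries. Of the 24 differences between cultures, 21 lost their call with the middle window, 14 without at least 1 library, 2 with DESeq2 and 1 with the replicate block. TMM and no filter ended none, and no sign turned. Depth limits the G1 ratios of Orc1 and Mcm4 and the comparisons with MOP.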
